A study of Mus musculus with 6 samples.

Results

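Collagen and laminin chain genes were taken as every gene whose symbol is Col, a number, a and a number, or Lama, Lamb or Lamc with a number, which gave 54 of the 20367 genes in the joined tables. There were 43 collagen genes and 11 laminin genes, and all 54 had a value above 0 somewhere and entered the tests. RNA was sequenced from cells that were sorted out of embryonic cortices of the C57BL/6J strain and carry the label of neurons. All embryos came from matings of Tbr2(Eomes)-GFP heterozygotes with DCX-mRFP homozygotes, so both populations came from the same kind of cross. Tbr2, also called Eomes, is a transcription factor of intermediate progenitors, and doublecortin (DCX) is a microtubule protein of young neurons. Double-colored cells carry the label of neurons derived from intermediate progenitors (IPN), and red-only cells the label non-IPN. There was 1 library per population on each of embryonic days 13.5, 15.5 and 16.5 (E13.5 and so on). On the first and last of these days 10000 cells per library were used and the RNA was amplified with the Ovation RNA-Seq System V2, while at E15.5 1000000 cells per library were used without amplification. Levels were therefore not tested between E15.5 and the other days. The labels name no separate animals, so p-values measure the spread between these libraries only. The populations are defined by reporter color alone, which limits them as a model of lineage. Where 3 values of a population follow each other below, they are in the order of the days, earliest first.

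Laminins are basement membrane proteins built of 1 alpha, 1 beta and 1 gamma chain, and they bind integrins and dystroglycan on cells. Collagens have chains that wind into a helix of 3, and they fall into fibril-forming, network-forming, fibril-associated (FACIT), transmembrane and other types. In the developing cortex the pial basement membrane and vessel walls hold much of this matrix, and fibroblasts of the meninges, endothelial cells and pericytes are known makers of it, while a few collagens, such as Col19a1 and Col25a1, are known from neurons.

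The values deposited by the authors are whole numbers on a scaled signal, and a level is given in CPM, which is here the deposited value per 1000000 of the total of its library. Library totals ran from 12583677 to 32538995, and the true read depth is unknown, so that no counting interval is given. A value of 1 stood for 0.031 to 0.079 CPM. Sums over marker lists described what else the libraries held. The 10 projection neuron markers summed to 5307, 6684 and 8636 CPM in IPN, against 838, 609 and 3906 in non-IPN. Of the 10, 8 were called higher in IPN, where 0.982% of all genes tested were. The 10 interneuron markers summed to 19.3, 65.5 and 62.2 in IPN and 1324, 4655 and 2647 in non-IPN. All 10 were called lower in IPN, where 2.41% of all genes tested were. The 12 microglia and macrophage markers summed to 2.34 to 5.30 in IPN and 503 to 973 in non-IPN, and all 12 were called lower, against the same 2.41%. The E13.5 pair stood apart: red blood cell markers summed to 6.20 CPM in IPN, against 49267 in non-IPN, and radial glia markers to 1323 in IPN, against 4739 in non-IPN. Hba-a1 (11747 CPM) and Hba-a2 (11755) were nearly equal in that non-IPN library, as were Hbb-b1 (944) and Hbb-b2 (943). The red blood cell sum may therefore count some signal in duplicate.

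The genes sat low in both populations. Of the 54, 27 (50.0%) averaged at least 1 CPM over the 6 libraries, against 65.6% of all genes tested, and 4 (7.4%) averaged at least 10, against 47.8%. Of the family, 15 genes were under 1 CPM in every library, and 6 were at least 1 in every library. Their summed level was 97.4, 234 and 115 CPM in IPN, against 217, 222 and 171 in non-IPN. The sums were lower in IPN than in non-IPN at E13.5 and E16.5 and a little higher in IPN at E15.5. In bulk samples such as these, fewer cells of a type and less RNA per cell cannot be told apart.

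**Figure D1:**
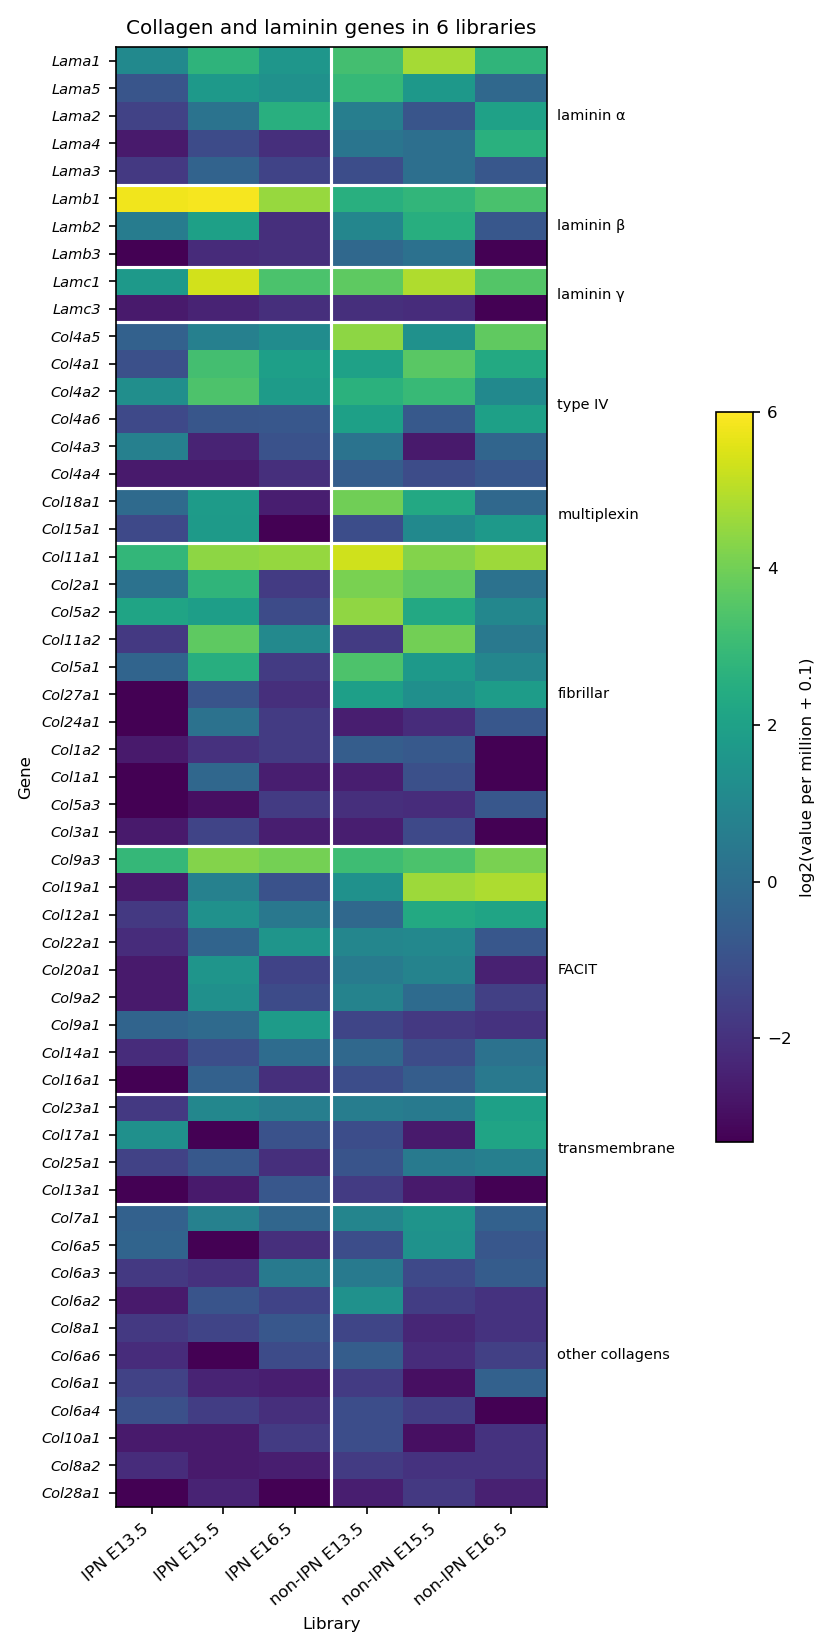
Levels of all but 1 of the 54 collagen and laminin genes in the 6 libraries, as log2(CPM + 0.1) on a color scale, IPN columns left of non-IPN columns and genes grouped by type. Lamb1 is brightest in IPN at E13.5 and E15.5 (55.7 and 58.2 CPM), Col19a1 is bright in the non-IPN columns, and the type I and type III chains are dark in all 6.

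The bases just before the starts of the genes called between the populations are shown, since this is where promoter motifs would be read. The first 3 are Lamb1, which was higher in IPN, and Col19a1 and Col27a1, which were lower. Col4a5 and Col4a6 follow because they start head to head on chromosome X, 1343 bases apart, and both were low in every IPN library. Each is the 250 bases before the transcription start, from the RefSeq table of build GRCm38.p6, printed 5′ to 3′ on the strand of the gene. Windows could be matched for 40 of the 54 genes. Capitals mark the matches to 4 motifs searched on both strands, which were the GC box GGGCGG, the proneural E-box CAGATG, the homeodomain core TAATTA and the TATA box TATAAA.
Lamb1: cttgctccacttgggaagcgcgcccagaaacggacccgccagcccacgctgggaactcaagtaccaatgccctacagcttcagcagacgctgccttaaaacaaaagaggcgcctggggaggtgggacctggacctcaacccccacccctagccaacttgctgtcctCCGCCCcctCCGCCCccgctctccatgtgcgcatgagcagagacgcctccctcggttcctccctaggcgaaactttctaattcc
Col19a1: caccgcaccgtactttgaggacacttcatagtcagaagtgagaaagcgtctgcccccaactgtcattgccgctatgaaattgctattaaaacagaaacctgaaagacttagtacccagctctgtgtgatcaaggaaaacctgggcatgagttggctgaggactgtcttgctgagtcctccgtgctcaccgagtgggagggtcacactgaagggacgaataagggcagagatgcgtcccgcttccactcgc
Col27a1: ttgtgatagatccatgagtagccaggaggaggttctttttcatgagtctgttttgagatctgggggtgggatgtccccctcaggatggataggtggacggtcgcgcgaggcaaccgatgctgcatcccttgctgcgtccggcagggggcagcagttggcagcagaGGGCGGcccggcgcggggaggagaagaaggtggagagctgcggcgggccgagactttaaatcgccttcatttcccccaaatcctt
Col4a5: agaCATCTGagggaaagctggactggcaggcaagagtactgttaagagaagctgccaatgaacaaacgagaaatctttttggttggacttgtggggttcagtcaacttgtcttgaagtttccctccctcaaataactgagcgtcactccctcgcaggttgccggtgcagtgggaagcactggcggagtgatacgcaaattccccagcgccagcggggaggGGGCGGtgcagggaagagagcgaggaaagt
Col4a6: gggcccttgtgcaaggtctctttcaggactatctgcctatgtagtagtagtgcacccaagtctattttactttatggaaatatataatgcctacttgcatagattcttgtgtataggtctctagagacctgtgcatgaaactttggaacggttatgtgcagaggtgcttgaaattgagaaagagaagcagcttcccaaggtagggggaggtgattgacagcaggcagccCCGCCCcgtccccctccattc
In the Lamb1 window, at chr12:31265043-31265292, the GC box read on the other strand as CCGCCC occurred at 84 and 75 bases before the start. Col27a1, at chr4:63215162-63215411, held it at 85 bases, Col4a6, at chrX:141474077-141474326, at 21 bases, and Col4a5, at chrX:141475169-141475418, at 30 bases. Col4a5 also had the E-box letters at 247 bases before its start. In Col19a1, at chr1:24587438-24587687, none of the 4 motifs was found in these letters. Across all 32851 windows of the table the GC box occurred in 32.7%, the E-box in 14.4%, the TATA box in 12.4% and the homeodomain core in 4.8%. These matches are descriptions of letters, and no factor binding was measured. Lamb1 starts on the plus strand and had a GC content of 62.0% in its window, Col27a1 had 59.6% and Col19a1 had 52.0%, beside a median of 52.4% for all windows.

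The comparison of IPN with non-IPN asks which matrix genes differed between the 2 sorted populations of the same cortices. Lamb1 was the 1 collagen or laminin gene called higher in IPN, where 0.982% of all genes tested were, and 2, Col19a1 and Col27a1, were called lower, where 2.41% were. A call is an adjusted p under 0.05 from limma, fitted on log2(value + 1) across all 19561 genes with population and day as factors and Benjamini-Hochberg adjustment. The 3 called genes are 5.56% of the family, against 3.39% of all genes in either direction, so the share lies near the background. An unadjusted p under 0.05 was reached by 10 of the 54, and the share of all genes that reached it was not computed. The fitted log2 change was under 0 for 41 and above 0 for 13, with a median of -0.65, against -0.02 for all genes tested. None of the 3 calls held in limma without its trend and robust options, where the adjusted p ran from 0.133 (Col19a1) to 0.275 (Lamb1) and no gene of the whole table was called.

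Lamb1 encodes the beta 1 chain of many embryonic laminins and, in humans, is a gene of cobblestone brain malformation. It stood at 55.7, 58.2 and 23.7 CPM in IPN, against 5.86, 6.98 and 10.01 in non-IPN. Every IPN library was above every non-IPN library, and the ratios were 9.5, 8.33 and 2.36. The fitted log2 change was 2.64 ± 0.43 (SE, 3 libraries each), with an adjusted p of 0.0075 by limma. Without the E13.5 pair it was 2.28 with an adjusted p of 0.0514, and without the E15.5 pair 2.41 with 0.232, so the call was lost in both fits. Without the E16.5 pair it was 3.24 with 0.00399. The fit without the E15.5 pair called 1 gene of the whole table higher, against 192 with all 6 libraries, so that loss was not particular to Lamb1. Without the E13.5 pair 186 genes were still called higher, and Lamb1 was not among them. Projection neuron markers were also higher in IPN at each day, and their part in the result was not tested.

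Col19a1 encodes a FACIT collagen that, in mouse, is made by interneurons and needed for some inhibitory synapses. It stood at 0.06, 1.63 and 0.41 CPM in IPN, against 2.5, 24.9 and 28.6 in non-IPN. In CPM all IPN libraries lay under all non-IPN libraries, and the IPN value at E13.5 was a deposited value of 1. As deposited, the values overlapped, with 53 in IPN at E15.5 and 35 in non-IPN at E13.5. The fitted log2 change was -4.57 ± 0.73 (SE), with an adjusted p of 0.00632 by limma. Without the E15.5 pair the adjusted p was 0.153 (log2 change -4.93), and the call held without the E13.5 pair (0.0169) and without the E16.5 pair (0.044). The fit without the E15.5 pair called 53 genes of the whole table lower, against 472 with all 6 libraries. Interneuron markers were lower in IPN at each day, and their part in the result was not tested. The other collagen known from neurons, Col25a1, a transmembrane chain needed in mouse for motor axons to enter muscle, was at 0.26, 0.49 and 0.14 in IPN and 0.43, 1.31 and 1.51 in non-IPN. Its fitted log2 change was -1.51 ± 0.89 with an adjusted p of 0.534, so no difference was called.

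Col27a1, a fibril-forming collagen of cartilage, was at 0, 0.43 and 0.14 CPM in IPN, against 3.72, 2.42 and 3.50 in non-IPN. The groups did not overlap, and the fitted log2 change was -4.0 ± 0.93 with an adjusted p of 0.0452. The call was lost with values scaled by column totals (adjusted p 0.0515), with median-of-ratios scaling (0.0695), with a pseudocount of 8 (0.071) and without any 1 of the 3 pairs (0.123 to 0.234).

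**Figure D2:**
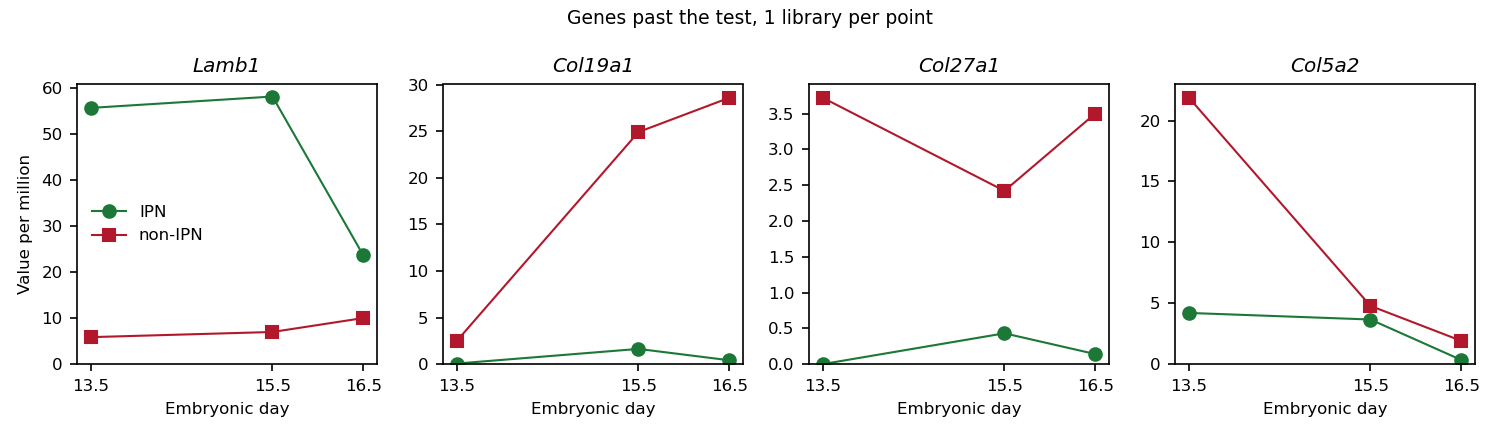
Level in CPM by embryonic day in IPN and non-IPN for the genes called in any comparison. Lamb1 lies above non-IPN in IPN at all 3 days, Col19a1 and Col27a1 lie under it, and Col5a2 is lower at E16.5 than at E13.5 in both populations.

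Beyond the calls, values per library were compared without a test. Every IPN library was above every non-IPN library for 2 of the 54 genes, Lamb1 and Col9a1, against 1.43% of all genes. Every IPN library was under every non-IPN library for 8 (14.8%), against 6.55% of all genes, and these were Col19a1, Lama1, Col4a5, Col27a1, Col4a6, Lama4, Col4a4 and Col8a2. On the values as deposited, 5 genes were so, and Col19a1, Lama1 and Col8a2 were not. The log2 ratio was negative at each of the 3 days for 18 genes (33.3%), against 15.2% of all genes, and positive at each for 2, against 14.2%. Both counts include low genes. At E13.5, 26 genes (48.1%) were at least 4-fold lower in IPN, against 14.0% of all genes. The same count was 6 at E15.5, where 6.92% of all genes were, and 14 at E16.5, where 8.18% were. At least 4-fold higher in IPN were 2, 3 and 4 genes on the 3 days, against 5.25%, 2.55% and 5.47% of all genes. The median log2 ratio of the family was -1.91, -0.21 and -0.33 at the 3 days, against 0 for all genes at each. The E13.5 ratios were taken against the non-IPN library whose red blood cell and radial glia sums are given above, and the part of those cells in them was not tested. With a pseudocount of 8, which damps low values, 12 genes were at least 4-fold lower at E13.5. The share of all genes was not computed at that pseudocount, so the 12 cannot be set against the 14.0%.

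**Figure D3:**
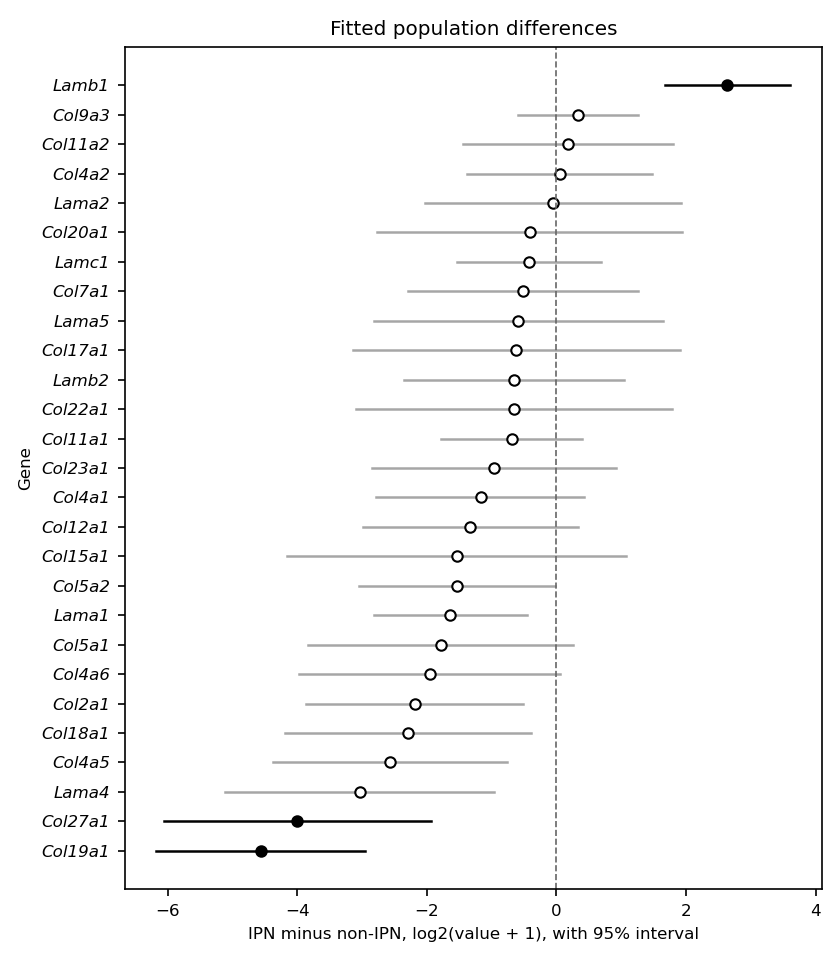
Fitted IPN minus non-IPN log2 difference, with 95% interval, of the 27 collagen and laminin genes that averaged at least 1 CPM, from the limma fit with population and day. Lamb1 is the gene with a called positive value (2.64) and Col19a1 (-4.57) and Col27a1 (-4.0) have called negative ones, drawn as filled points, while the open points were not called.

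Among the laminins, levels per kilobase of exon allow chains to be set beside each other, using union exon lengths of GENCODE M21. Lamb1 had 5.62, 5.87 and 2.39 CPM per kilobase in IPN, against 0.591, 0.704 and 1.01 in non-IPN. Lamc1, the gamma 1 chain of most laminins, had 0.375, 5.0 and 1.22 in IPN and 1.54, 3.58 and 1.36 in non-IPN. Lama1, an alpha chain of early basement membranes including the pial one, had 0.214, 0.676 and 0.297 in IPN and 0.938, 2.74 and 0.698 in non-IPN. The beta 1 chain was the highest laminin in IPN on all 3 days, whereas in non-IPN Lamc1 was higher than Lamb1 on all 3. By CPM, Lamc1 was at 3.10, 41.4 and 10.1 in IPN and 12.7, 29.6 and 11.2 in non-IPN. It was not called, with a fitted log2 change of -0.42 ± 0.50 (95% interval -1.54 to 0.69), an adjusted p of 0.792 and a value of 0.30 without the E13.5 pair. Lama1 was at 2.07, 6.55 and 2.87 CPM in IPN, against 9.08, 26.6 and 6.75 in non-IPN. These did not overlap in CPM, though the deposited values did, and the fitted change was -1.64 ± 0.53 (95% interval -2.82 to -0.46) with an adjusted p of 0.165.

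Of the other alpha chains, Lama4, of endothelial basement membranes, was at 0.06, 0.34 and 0.14 CPM in IPN, against 1.14, 0.96 and 5.96 in non-IPN, without overlap, and its fitted change was -3.04 ± 0.94 with an adjusted p of 0.144. Lama2, of muscle and vessel-associated laminins, was at 0.26, 1.08 and 5.75 in IPN and 1.5, 0.45 and 3.97 in non-IPN, which overlapped. Lama5, a widespread chain, was at 0.45, 3.23 and 2.53 in IPN and 7.44, 3.0 and 0.79 in non-IPN, which also overlapped. Lamb2, known for neuromuscular junctions and kidney, was at 1.42, 3.81 and 0.14 in IPN and 1.86, 5.64 and 0.48 in non-IPN. The epithelial chains Lama3 and Lamb3 and the cortical chain Lamc3 were at 1.02 or less in every library.

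**Figure D4:**
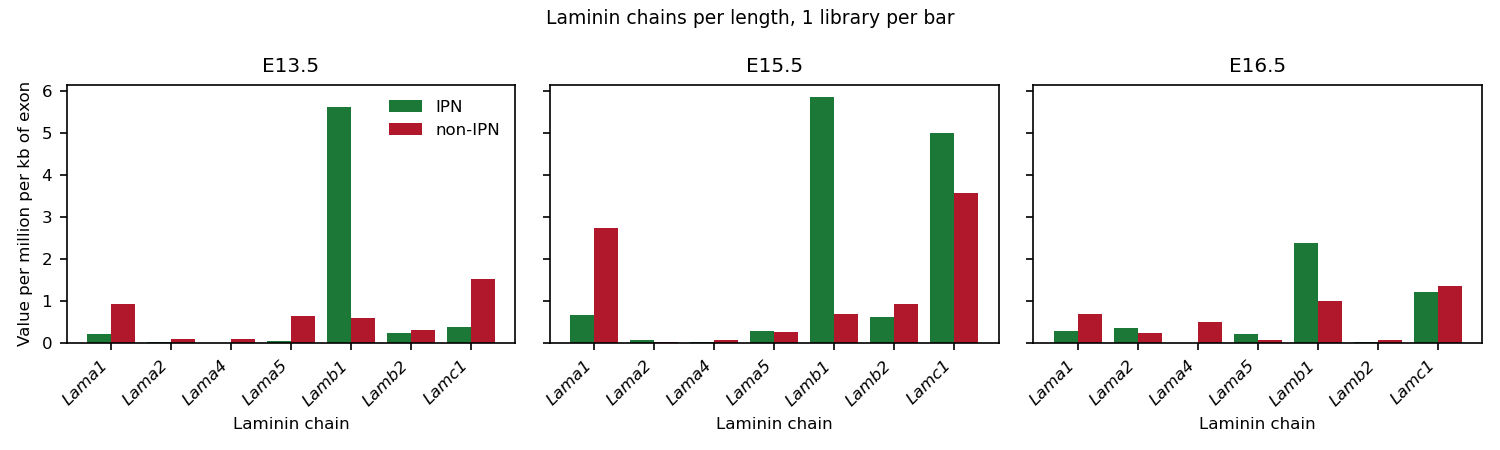
Laminin chains in CPM per kilobase of exon in IPN and non-IPN at each day. Lamb1 stands highest in IPN at 2.39 to 5.87, and Lamc1 reaches 5.0 in IPN at E15.5.

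The network collagens of type IV make up the core of basement membranes. None of the 6 was called between the populations, where 3.39% of all genes were in either direction. Their median fitted log2 change was -1.49. Col4a1 was at 0.39, 9.22 and 3.76 CPM in IPN, against 3.93, 12.2 and 4.93 in non-IPN, and Col4a2, whose start lies 21 bases from that of Col4a1, was at 2.33, 10.3 and 3.35 in IPN and 6.15, 7.62 and 2.07 in non-IPN. Both overlapped between populations, and Col4a2 had a fitted change of 0.05 ± 0.64 (95% interval -1.38 to 1.47) with an adjusted p of 0.991. The sign of Col4a2 turned in 3 of the alternatives run, to -0.09, -0.17 and -0.37. Col4a5 was at 0.65, 1.57 and 2.19 in IPN and 21.1, 2.52 and 13.1 in non-IPN. Its neighbor Col4a6 was at 0.32, 0.46 and 0.48 in IPN and 3.79, 0.51 and 3.81 in non-IPN. Neither overlapped, with fitted changes of -2.57 (adjusted p 0.157) and -1.96 (adjusted p 0.384), and for both the E15.5 pair was close while the other 2 pairs were far apart. Col18a1, a multiplexin whose fragment endostatin limits vessel growth, was at 0.84, 3.41 and 0.07 in IPN and 15.7, 4.81 and 0.79 in non-IPN, with an adjusted p of 0.253. Col4a3 did not pass 1.55 and Col4a4 did not pass 0.57. Col15a1, the multiplexin of vessel and muscle basement membranes, was at 0.32, 3.32 and 0 in IPN and 0.36, 2.07 and 3.18 in non-IPN.

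Among fibril-forming collagens the highest mean CPM over the 6 libraries was that of Col11a1, a cartilage chain, at 7.04, 21.0 and 22.7 CPM in IPN, against 39.7, 19.3 and 24.8 in non-IPN. It overlapped between groups, with a fitted change of -0.69 ± 0.49 (95% interval -1.78 to 0.40) and an adjusted p of 0.616, and its value was 0.13 without the E13.5 pair. Col2a1, the main cartilage collagen, was at 1.03, 6.73 and 0.21 in IPN and 17.4, 13.2 and 1.03 in non-IPN, with a fitted change of -2.19 ± 0.76 and an adjusted p of 0.204. Col5a2, which helps set the diameter of type I fibrils, was at 4.2, 3.66 and 0.34 in IPN and 21.9, 4.78 and 1.91 in non-IPN. Col5a1, its partner chain, was at 0.71, 5.62 and 0.21 in IPN and 10.5, 3.22 and 1.83 in non-IPN. Both Col5 genes had their highest value in non-IPN at E13.5. Col11a2, a further cartilage chain, was at 0.19, 12.7 and 1.98 in IPN and 0.21, 16.2 and 1.27 in non-IPN. Type I and type III chains, the bulk collagens of meninges and skin, were near 0. Col1a1 was at 0, 0.77 and 0.07 in IPN and 0.07, 0.38 and 0 in non-IPN, Col1a2 did not pass 0.57, and Col3a1, in mouse a ligand of the receptor Gpr56 at the pial surface, did not pass 0.32. Col24a1 did not pass 1.04, and Col5a3 was under 1 in every library.

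The FACIT collagens other than Col19a1 include the type IX chains, of cartilage and eye. Col9a3 was at 7.24, 19.0 and 16.4 CPM in IPN, against 8.51, 10.2 and 17.2 in non-IPN, with a fitted change of 0.33 ± 0.42 (95% interval -0.60 to 1.26) and an adjusted p of 0.812. Its partner Col9a1 was at 0.71, 0.83 and 3.35 in IPN and 0.29, 0.19 and 0.16 in non-IPN, without overlap, with a fitted change of 2.44 ± 0.92 and an adjusted p of 0.26. Col12a1, of tendon and fascia, was at 0.19, 2.55 and 1.23 in IPN and 0.79, 4.94 and 4.21 in non-IPN. The other FACIT chains, Col9a2, Col14a1, Col16a1, Col20a1 and Col22a1, did not pass 2.83. Of the transmembrane collagens Col23a1, which had the highest mean CPM over the 6 libraries, was at 0.19, 1.91 and 1.5 in IPN and 1.43, 1.31 and 3.81 in non-IPN, while Col17a1 did not pass 4.29 and Col13a1 did not pass 0.48. Of the other 11 collagens, of beaded filament, anchoring, short-chain and further types, 7 were under 1 CPM in every library, and the highest mean was that of Col7a1, of the anchoring fibrils of skin, which did not pass 2.77.

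Collagens known from neurons were set beside matrix genes typical of vessels and of meninges. The 2 collagens known from neurons, Col19a1 and Col25a1, summed to 0.32, 2.12 and 0.55 CPM in IPN, against 2.93, 26.2 and 30.1 in non-IPN. Of the 2, 1 (Col19a1) was called lower, where 2.41% of all genes were. The 8 matrix genes typical of vessels summed to 63.2, 129 and 43.6 CPM in IPN, against 53.3, 67.3 and 38.9 in non-IPN. Of the 8, 1 was called higher, where 0.982% of all genes were. It was Lamb1, which alone gave 55.7, 58.2 and 23.7 of the IPN sums. The 12 typical of meninges summed to 8.21, 21.7 and 13.3 in IPN and 49.3, 42.1 and 21.1 in non-IPN. None of the 12 was called, where 3.39% of all genes were in either direction. Marker lists of the cells of vessels and meninges were summed as well. The 14 endothelial markers summed to 3.68, 6.95 and 10.6 in IPN and 5.58, 10.9 and 9.62 in non-IPN. None was called between the populations, where 3.39% of all genes were in either direction. Of the 14, 8 were under 1 CPM in every library. Cdh5, the endothelial cadherin, was at 0, 0.22 and 0 in IPN and 1.5, 0.67 and 0 in non-IPN, and Pecam1 was at 0, 0.52 and 0.07 in IPN and 1.07, 1.91 and 0.16 in non-IPN. Both of these defining genes were under 2 CPM in every library. Others of the list went the other way or stood higher. Egfl7 was at 1.68, 1.44 and 2.12 in IPN and 0.21, 1.02 and 0.08 in non-IPN, with an adjusted p of 0.27 by limma. Slco1c1 reached 4.65 in IPN and 4.93 in non-IPN at E16.5, against 0.26 (IPN) and 0 (non-IPN) at E13.5. The median fitted log2 change of the 14 markers was -0.14. The 10 pericyte and smooth muscle markers summed to 13.8, 15.8 and 20.8 in IPN and 14.4, 23.4 and 18.3 in non-IPN. The 13 meningeal fibroblast markers summed to 23.3, 4.09 and 7.52 in IPN and 23.9, 4.65 and 10.8 in non-IPN, and most of the E13.5 sums was Crabp2. Twist1 was at 0 in all 6 libraries and Foxc1 did not pass 0.19. Other markers of the list were higher at E16.5, with Dcn at 2.39 in IPN and 3.73 in non-IPN. On that day Lum was at 0.21 (IPN) and 3.66 (non-IPN), and Ptgds at 3.15 (IPN) and 0.48 (non-IPN). Between E13.5 and E16.5, Dcn (adjusted p 0.0325 by limma) and the endothelial marker Slco1c1 (0.0312) were called higher and Crabp2 lower (0.00893). Of all genes, 3.76% were called higher and 2.26% lower. The part of these cells in the collagen and laminin values was not tested.

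**Figure D5:**
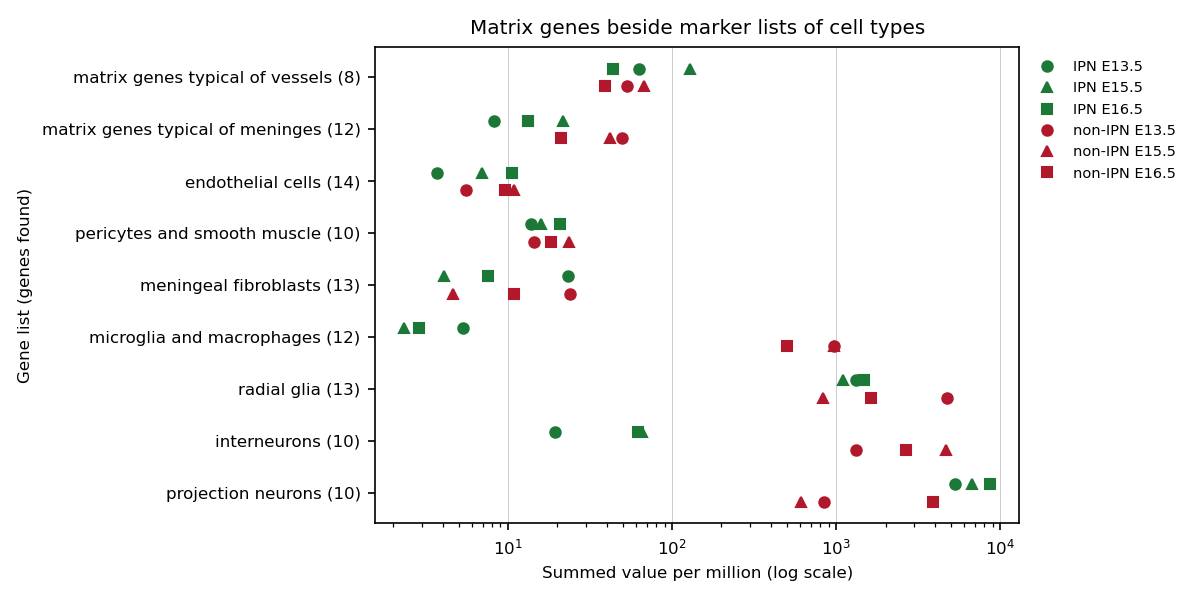
Summed CPM of lists of matrix genes and cell type markers in IPN and non-IPN at each day, on a log axis. The endothelial sums lie between 3.68 and 10.6 in IPN and between 5.58 and 10.9 in non-IPN, while the sum of the matrix genes typical of meninges at E13.5 is 8.21 in IPN, against 49.3 in non-IPN.

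Between days, E16.5 was set against E13.5, the pair of ages prepared in the same way. Col5a2 was the 1 gene of the 54 called lower at E16.5, where 2.26% of all genes were, and 0 were called higher, where 3.76% were (6.02% of all genes in either direction). An unadjusted p under 0.05 was reached by 8, again without a share of all genes to set beside it. Col5a2 was at 0.34 (IPN) and 1.91 (non-IPN) at E16.5, against 4.2 (IPN) and 21.9 (non-IPN) at E13.5. The fall was of like size in both populations, at -3.46 and -3.62 on the log2 scale, and the fitted change was -3.54 ± 0.84 with an adjusted p of 0.0356. With a pseudocount of 8 its adjusted p was 0.0703. When any 1 of the 4 libraries was left out the fitted change was -4.05 to -3.03, and no gene of the whole table was called in these fits, nor in limma without the trend and robust options. Col2a1 and Col18a1 had fitted changes of -3.11 ± 0.93 and -3.56 ± 1.05, with adjusted p of 0.0802 and 0.0765, so neither was called. The median fitted change of the family was 0.10, against 0 for all genes. The IPN minus non-IPN difference by embryonic day, fitted as a number, called 0 of the 54 with limma. Of all genes, 0.624% were called higher and 0.680% lower (1.30% together). Of the 54, 12 reached an unadjusted p under 0.05, and no share of all genes was computed for it. Scaled by column totals, 4 of the 54 were called, where 7.26% of all genes were, and by median-of-ratios, 6 were called, where 7.96% were, so these shares also lie near the background. The population by day term includes the E15.5 pair, which had more cells and no amplification. Day and preparation can therefore not be fully told apart in it.

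Other matrix genes were described from lists chosen for their known roles. Of 28 collagen-modifying enzymes and chaperones, 1 was called higher and 1 lower in IPN, where 0.982% and 2.41% of all genes were, with a median of 0.08. Adamts3, which trims procollagen and cleaves reelin, was at 118, 235 and 275 CPM in IPN, against 37.2, 20.2 and 133 in non-IPN, a fitted change of 2.22 ± 0.38 with an adjusted p of 0.0107. Plod1, a lysyl hydroxylase, was at 0, 1.81 and 0.14 in IPN and 2.86, 16.5 and 2.30 in non-IPN, with a fitted change of -3.93 ± 0.84 and an adjusted p of 0.0292. Pcolce2, an enhancer of procollagen trimming, was lower at E16.5 by -5.42 ± 1.04 with an adjusted p of 0.0156. Serpinh1, the collagen chaperone, was lower at E16.5, at 5.20 in IPN and 1.99 in non-IPN, against 13.7 (IPN) and 15.9 (non-IPN) at E13.5, with a fitted change of -2.28 ± 0.59 and an adjusted p of 0.0491.

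Of 15 basement membrane partners, 3 were called lower in IPN, against 2.41% of all genes, and none higher, against 0.982%, with a median of -0.89. Sparc, a secreted collagen-binding glycoprotein, was at 1.10, 2.77 and 0.62 CPM in IPN, against 125, 62.2 and 20.9 in non-IPN, with a fitted change of -5.25 ± 0.55 and an adjusted p of 0.00073. Smoc1, a calcium-binding matrix protein, was at 0.78, 4.86 and 0.96 in IPN and 12.7, 24.5 and 6.04 in non-IPN, with a fitted change of -2.80 ± 0.62 and an adjusted p of 0.0336. Tgfbi, a secreted protein that binds collagens and integrins, was at 0.06, 0.28 and 0 in IPN and 5.86, 4.65 and 1.51 in non-IPN. In CPM the groups did not overlap for any of the 3 genes, though the deposited values of Smoc1 did. Agrn, the proteoglycan agrin, had the highest mean CPM of the list over the 6 libraries, though not the highest level in each, at 165, 510 and 168 in IPN and 144, 669 and 233 in non-IPN, with a fitted change of -0.08 ± 0.21 and an adjusted p of 0.9. Of 19 collagen and laminin receptors, 2 were called lower, against 2.41% of all genes, and none higher, against 0.982%. Lair1, an inhibitory collagen receptor of leukocytes, was at 0.26, 0.12 and 0.21 in IPN and 45.9, 13.1 and 20.03 in non-IPN, with a fitted change of -6.45 ± 0.70 and an adjusted p of 0.000886. Microglia markers were likewise lower in IPN, and their part in the Sparc and Lair1 values was not tested. Sdc4, a syndecan, was at 0, 0.22 and 0.14 in IPN and 0.93, 3.95 and 2.70 in non-IPN. Sdc3, with the highest mean CPM of the list over the 6 libraries, though not the highest level in each, was at 52.0, 353 and 66.8 in IPN and 28.4, 288 and 51.5 in non-IPN, with an adjusted p of 0.224. The groups did not overlap for Sdc4 and overlapped for Sdc3. Gpr56, the collagen III receptor, was lower at E16.5, at 50.8 in IPN and 54.0 in non-IPN, against 94.8 (IPN) and 104 (non-IPN) at E13.5, with a fitted change of -1.04 ± 0.26 and an adjusted p of 0.0455. Ddr1, a collagen receptor kinase, was also lower at E16.5, by -1.29 ± 0.30 with an adjusted p of 0.0318. Of 15 lectican, tenascin and hyaluronan matrix genes, none was called between populations, where 3.39% of all genes were in either direction. Of the 15, 3 (Tnr, Ncan and Tnc) were called higher at E16.5 than at E13.5, against 3.76% of all genes. Tnr, a tenascin of the nervous system, was at 10.3 (IPN) and 13.1 (non-IPN) at E16.5, against 0.19 (IPN) and 0.07 (non-IPN) at E13.5, a fitted change of 5.81 ± 0.77 with an adjusted p of 0.00364. Vcan, the proteoglycan versican, had the highest mean CPM of the list over the 6 libraries, though not the highest level in each, at 1113, 605 and 805 in IPN and 787, 706 and 1011 in non-IPN, with a fitted population change of 0.12 ± 0.21 and an adjusted p of 0.841.

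Of the called genes of these other lists, Sparc and Lair1 kept their population call without each pair of libraries in turn. Adamts3 lost it without the E13.5 pair (adjusted p 0.0535) or the E15.5 pair (0.137), and Tgfbi without the E13.5 pair (0.0699) or the E15.5 pair (0.232). Plod1, Smoc1 and Sdc4 lost it without any 1 of the 3 pairs, with adjusted p from 0.0549 to 0.408. With a pseudocount of 8 the population calls of Adamts3 (0.053), Plod1 (0.0709), Smoc1 (0.0603), Tgfbi (0.0609) and Sdc4 (0.12) were lost. Of the E16.5 calls, that of Serpinh1 was lost by column totals (0.0671), by median-of-ratios scaling (0.0545) and with a pseudocount of 8 (0.0841). Gpr56 and Ddr1 lost theirs by column totals (0.0648 and 0.0543) and with a pseudocount of 8 (0.0762 and 0.0644), and Tnc with a pseudocount of 8 (0.0524). Without any 1 of the 4 libraries the fitted change was 5.24 to 6.38 for Tnr, 1.24 to 1.42 for Ncan and -2.97 to -1.60 for Serpinh1.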

How the data were processed

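RNA was measured in 6 libraries, grouped by the labels as IPN and non-IPN. Mouse build mm9 and the tools CASAVA 1.9, TopHat 1.2.0, SAMtools 0.1.18 and edgeR are named per the submitters' processing notes. The role of each tool, the scaling and any use of strand in counting are unknown. The authors deposited 1 signal value per gene symbol in each library, as whole numbers that were already scaled, so no count model was used. Tables were joined by symbol after 6 entries of 3 repeated symbols were dropped from 20373. CPM divides a value by its column total, times 1000000. Fits used limma 3.58.1 (R 4.3.3, options trend and robust) on log2(value + 1) over 19561 genes, with population and day as factors, 2 residual degrees of freedom, a median prior of 8.3 and Benjamini-Hochberg adjustment at 0.05. The day is the pairing: both populations of a day were sorted from the same dissociated tissue, as the protocols in the labels describe. The population by day term had 1 residual degree of freedom. Fold changes of low genes are understated on this scale. The fit was tested on simulated data. Named were the called genes, the 20 highest means, the type IV and laminin chains and the neuronal collagens, and of other lists up to 4 called genes and the highest. Further genes named for low or non-overlapping values were picked after their values were seen. Members and lists were chosen with earlier results of these data known. Of the genes, 1 of the family entered all fits and counts and is not reported here by itself.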

Additional observations from a re-analysis of the deposited data

How the results depend on the processing

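Of 268 values recomputed for 32 results on single genes, 167 kept their direction and side of the threshold, 96 kept the direction and lost the call, and 5 turned sign, to -0.09, -0.17 and -0.37 for Col4a2, 0.13 for Col11a1 and 0.30 for Lamc1. Leaving out 1 pair gave -0.37 to 0.69 for Col4a2, -1.12 to 0.13 for Col11a1 and -0.90 to 0.30 for Lamc1. The causes were not tested. Between the populations 192 genes were called higher in IPN and 472 lower. With a pseudocount of 8 these were 93 and 271, and with genes averaging at least 10 CPM 203 were lower. In limma without the trend and robust options, and separately with no replicate block for the day (the pairing dropped), 0 genes and 0 family members were called in either direction. Leaving out 1 pair of libraries gave 1 to 186 higher and 53 to 433 lower, the lowest of both without the E15.5 pair, with 0 to 1 family members called higher and 0 to 1 lower. Family members lower were 1 under the pseudocount of 8, column totals and median-of-ratios scaling, and 0 with the filter. Between E16.5 and E13.5, 736 and 442 genes were called, 351 and 178 with the pseudocount of 8, and 0 and 0 without trend and robust options or without any 1 library, each of which left 0 family members, as did the pseudocount of 8 and the filter on means of at least 10 CPM. With any 1 library left out no gene of the table passed, so those fits say nothing about the stability of a single call. The population by day term called 122 and 133, then 14 and 5 with the pseudocount of 8, 56 and 79 with the filter, 714 and 707 by column totals (3 and 1 family members), 878 and 680 by median-of-ratios (5 and 1), and 0 and 0 without trend and robust options. Family members at least 4-fold lower on the 3 days were 12, 2 and 6 with the pseudocount of 8, against 26, 6 and 14, and at least 4-fold higher 1, 1 and 1, against 2, 3 and 4. Family genes with every IPN library under every non-IPN library were 5 on deposited values, against 8. The alternatives for these untested counts were chosen after seeing the data, and no share of all genes was computed under them. The median shift of all genes between the populations was -0.02, -0.14 by column totals and -0.01 by median-of-ratios. The spread of each gene rests on 3 pairs and is moderated toward that of other genes, and with the read depth unknown, low values carry an error that could not be computed.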
